A study of Mus musculus with 8 samples.

Results

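The 8 arrays of a study of mouse aortic endothelium were ranked by their level of Ucp1, the uncoupling protein that marks brown adipocytes, and the 4 arrays with the highest level (rich arrays) were set against the 4 with the lowest (poor arrays). All 8 of the 8 arrays of the series entered the comparison. The classes were chosen by these measured values, so differences between them are given as a description with no test. The rich arrays were Control 3, Control 4, EKO 1 and EKO 4, and the poor arrays were Control 1, EKO 3, Control 2 and EKO 2, so each class held 2 arrays of each study group. Wherever values of a gene follow one another below, they stand in this order, which is the order of falling Ucp1.

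Both study groups were female mice that carried Cdh5-CreERT2, a tamoxifen-activated recombinase under the endothelial Cdh5 promoter, and floxed alleles of Mef2c (Mef2c f/f). At an age of 10 weeks, EKO mice received 5 daily injections of tamoxifen and Control littermates received the vehicle, sunflower seed oil with 10% ethanol. Tamoxifen was therefore given to the EKO mice alone, and all mice carried the recombinase. The harvest of thoracic aortas followed 14 days after injections began, and TRIzol, a lysis reagent for RNA, was passed through the lumen of each single aorta. From each aorta 5 ng of total RNA was amplified with the WT Pico protocol and measured on an Affymetrix Mouse Transcriptome Array 1.0. Values are log2 expression, and a difference of 1 is a 2-fold difference. The labels call the tissue thoracic aortic endothelium and say nothing of the fat around it.

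The thoracic aorta of the mouse lies in a sheath of perivascular fat whose adipocytes resemble brown fat. Brown adipocytes burn fatty acids in abundant mitochondria, and Ucp1 lets protons return across the inner mitochondrial membrane so that the energy is released as heat. They also make fatty acids and triglycerides, take up glucose and keep their lipid in many small droplets.

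Ucp1 read 16.73 on Control 3, 16.24 on Control 4, 15.78 on EKO 1 and 15.20 on EKO 4. It read 14.38 on Control 1, 13.45 on EKO 3, 11.96 on Control 2 and 11.14 on EKO 2. The array just inside the rich class, EKO 4, and the one just outside, Control 1, were 0.82 apart, less than the range of 3.23 within the poor class or of 1.54 within the rich class. The classes therefore cut a continuous series of arrays that spanned 5.59, a 48.1-fold range. Even on EKO 2 the level lay above the medians of the array's negative control probe sets, which were 7.34 to 7.45, so the poor arrays were low in Ucp1 rather than without it. Adipoq, which encodes the adipocyte hormone adiponectin, read 10.11, 9.43, 9.45 and 8.51 on the rich arrays and 8.30, 7.71, 8.12 and 7.63 on the poor arrays. Its ranking put the same 4 arrays at the top, and so did the mean of the other 16 tested brown adipocyte genes. Of the 17 tested brown adipocyte genes, 13 separated the classes without overlap, while Pdk4, Ppargc1a, Epsti1 and Prdm16 overlapped. Ucp1 is among the 13, and its separation was fixed because it made the classes. The brown fat genes Dio2, Zic1, Lhx8, Slc27a2, Bmp8b and Esrrg did not pass the filter on level. In tissue lysates, fewer cells of a type and less RNA per cell cannot be told apart.

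Some technical values moved with the classes. The difference between the medians of positive and negative control probe sets was 3.40 to 3.59 on rich and 3.19 to 3.43 on poor arrays, and the median of all probe sets was 6.06 to 6.16 on rich and 6.14 to 6.24 on poor arrays. Their part in the differences below was not tested. Control 4 and EKO 2 stood apart from the other arrays: Control 4 had the highest mesothelial and skeletal muscle levels, and EKO 2 had a mean of 8.82 over neutrophil genes against 6.13 to 7.75 on the other 7 arrays. The group labels could not be checked with Mef2c. Its probe set read 9.88, 9.80, 9.56 and 10.03 on the rich arrays and 9.62, 9.66, 9.79 and 9.73 on the poor arrays, and since the floxed exons are not named in the labels, it does not measure the deletion.

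Of 16232 genes above the filter on level, 138 were at least 2-fold higher in the rich arrays with every rich array above every poor array (0.85%), and 4 were at least 2-fold lower with no overlap (0.0246%). Without a minimum fold, 1249 genes were higher with no overlap (7.69%) and 408 were lower with no overlap (2.51%). The median difference over all genes was 0.02, and 9018 of the 16232 genes were above 0, the background for the counts above 0 in lists below. Of the 138 higher genes, 106 were named protein-coding genes, 32 stood in the lists of adipocyte and lipid genes and 29 in the lists of mitochondrial genes, while 73 stood in no list. Of the 138, which include Ucp1, 128 had the lowest of their rich values on EKO 4, and 87 had their lowest value of all on EKO 2. A set of 94 was highest on Control 3 and 31 were highest on Control 4. The shares of all genes with these extremes are not given here. EKO 2 also had the smallest difference between positive and negative control probe sets (3.19) and Control 3 the largest (3.59), and the part of array signal was not tested. In 23 of the 138 the mean of the poor arrays lay below the level of negative control probe sets, and 2 of them, Elovl3 and Rgs7 (the latter named after its values were seen), passed the filter on level through the rich arrays alone. Leaving out Control 4 and EKO 2 gave 126 genes, 111 of them among the 138. Leaving out EKO 4 alone, the rich array nearest to the poor ones, gave 208 genes, which included all 138.

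**Figure D1:**
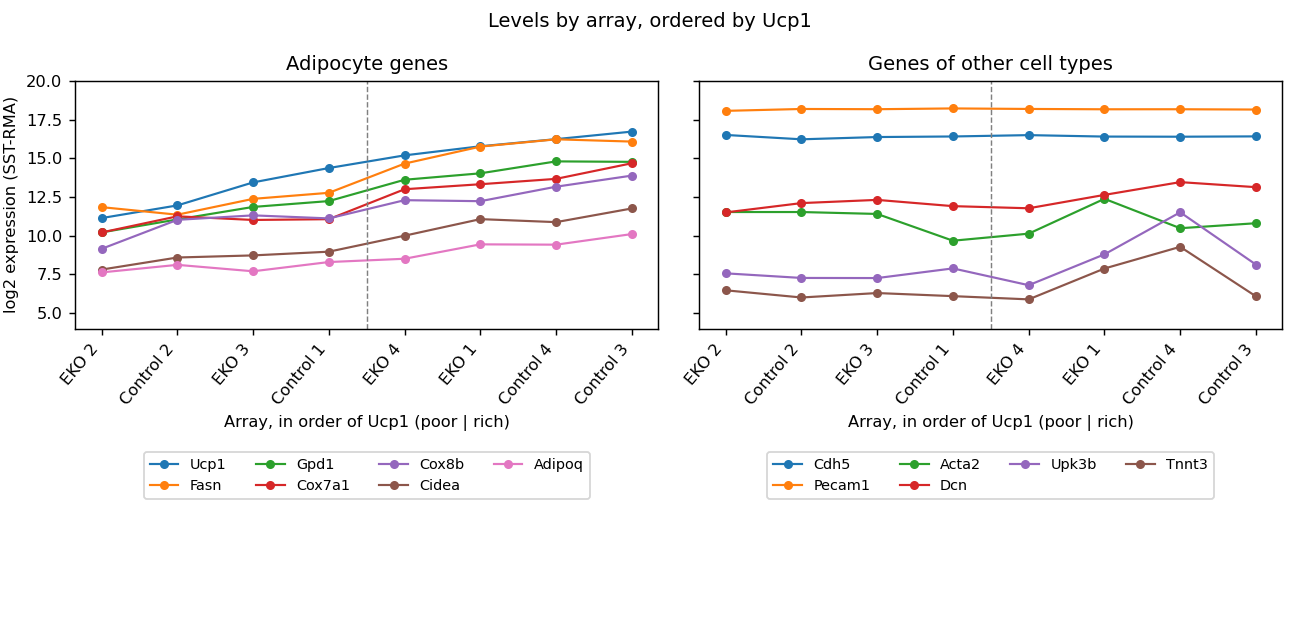
Levels of single genes (log2 expression) on the 8 arrays, ordered from the lowest to the highest Ucp1, with a dashed line between poor and rich arrays. Adipocyte genes on the left climb along the order, for example Fasn from 11.85 on EKO 2 to 16.09 on Control 3. On the right the endothelial genes Cdh5 and Pecam1 stay level, Acta2 does not follow the order, and Upk3b (mesothelium) and Tnnt3 (skeletal muscle) peak on Control 4.

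Among brown adipocyte and thermogenic genes, all 17 tested members were higher in the rich arrays, 8 of them at least 2-fold with no overlap, with a median difference of 1.12. Elovl3, 1 of these 8, passed the filter through the rich arrays alone and so had to differ. Over the other 16 genes the median was 1.06, with 7 at least 2-fold higher with no overlap. All these counts and medians include Ucp1, which made the classes and so had to separate them. After Ucp1, with a difference of 3.26 (pooled SD within classes 1.13, 4 arrays a class), the largest belonged to Cox7a1, a subunit of cytochrome c oxidase made in muscle and brown fat. Cox7a1 read 14.69, 13.68, 13.33 and 13.01 on the rich arrays and 11.07, 11.02, 11.26 and 10.22 on the poor arrays, a difference of 2.78 (pooled SD 0.61), or 6.89-fold. The gap between the classes was wider than the range of either class. Cidea, a lipid droplet protein of brown adipocytes, read 11.77, 10.88, 11.08 and 10.01 on the rich arrays and 8.97, 8.73, 8.60 and 7.82 on the poor arrays, a difference of 2.40 (pooled SD 0.62). Cox8b, another oxidase subunit of muscle and brown fat, read 13.89, 13.17, 12.24 and 12.30 on the rich arrays and 11.12, 11.32, 11.03 and 9.16 on the poor arrays, a difference of 2.24 (pooled SD 0.90). For Cox8b the poor array EKO 2 lay far below the other 3 poor arrays, which were close to each other.

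The remaining thermogenic genes covered a wide range. Fabp3, a fatty acid carrier, had a difference of 1.95, Cpt1b, which brings fatty acids into mitochondria, one of 1.48, and Otop1, a proton channel, one of 1.18. Elovl3, an elongase of brown fat, had a difference of 1.12 but a low level: it read 6.51, 6.83, 7.09 and 6.59 on the rich arrays and 6.01, 6.12, 4.95 and 5.47 on the poor arrays, below the negative control medians throughout. Pdk4, a kinase that restrains pyruvate dehydrogenase, had a difference of 1.54 with overlap, since Control 1 at 12.55 exceeded Control 4 and EKO 4. The differences of the coactivator Ppargc1a (0.43) and of Prdm16, a regulator of brown fat identity (0.20), were small, and both overlapped between the classes. Prdm16 read 10.95, 10.92, 10.40 and 10.92 on the rich arrays and 10.75, 10.43, 10.89 and 10.32 on the poor arrays. Dio2, which activates thyroid hormone, and the identity genes Zic1 and Lhx8 lay below the filter in these arrays, as did Slc27a2, Bmp8b and Esrrg, with differences between -0.16 and 0.35.

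All 19 tested genes of adipocytes in general were higher in the rich arrays, 12 of them at least 2-fold with no overlap, with a median of 1.43, or 1.45 over the 18 genes without Adig, which passed the filter through the rich arrays alone. Gpd1, which makes the glycerol phosphate of triglycerides, read 14.78, 14.81, 14.04 and 13.62 on the rich arrays and 12.24, 11.86, 11.06 and 10.22 on the poor arrays. Trarg1, which acts in the trafficking of the insulin-regulated glucose transporter, read 10.90, 10.87, 10.43 and 9.75 on the rich arrays and 8.31, 7.79, 7.29 and 7.15 on the poor arrays, a difference of 2.85 (pooled SD 0.53). Neither gene overlapped between the classes, and Control 1 was the highest of the poor arrays in both. Car3, a carbonic anhydrase abundant in fat, differed by 2.19 and Rbp4, the retinol carrier, by 1.98. Pparg and Cebpa, the transcription factors that drive adipocyte formation, were the regulators with the largest differences. Cebpa read 11.96, 11.77, 11.47 and 11.38 on the rich arrays and 10.28, 10.42, 9.37 and 9.24 on the poor arrays, a difference of 1.82 (pooled SD 0.47), and Pparg had a difference of 1.74 (pooled SD 0.65). Of 18 regulators tested, 17 were higher, but just these 2 were at least 2-fold higher with no overlap, and the median was 0.38. Ppara, the receptor for fatty acids, differed by 0.91 and Ebf2, a brown fat selector, by 0.75, both with no overlap. Cebpd (0.14), Klf15 (0.12), Zfp423 (0.07) and Klf9 (-0.25) overlapped between the classes.

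Genes selective for white or beige adipocytes gave few values. Of 13 members 3 were tested, with differences of 0.96 for Retn, the hormone resistin, -0.16 for Tmem26 and -0.07 for Tbx1, all with overlap. The Retn difference came from the Control arrays. It read 8.29 and 8.76 on the rich Control arrays but 7.50 and 6.83 on the rich EKO arrays, within or near the poor range of 6.50 to 7.29. Lep, the white fat hormone leptin, lay below the filter, with means of 6.33 on the rich and 5.81 on the poor arrays.

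Fatty acid and triglyceride synthesis held the largest difference of any protein-coding gene. All 15 tested members were higher in the rich arrays, 11 of them at least 2-fold with no overlap, with a median of 1.46. Fasn, the fatty acid synthase, read 16.09, 16.23, 15.76 and 14.66 on the rich arrays and 12.78, 12.39, 11.36 and 11.85 on the poor arrays. The difference was 3.59 (pooled SD 0.67), or 12.1-fold, and the classes were far apart. Thrsp, a lipogenic nuclear protein, read 13.91, 14.00, 12.57 and 12.62 on the rich arrays and 10.65, 10.82, 9.80 and 10.02 on the poor arrays. Acaca, which makes malonyl-CoA for the synthase, read 12.47, 12.89, 11.84 and 10.88 on the rich arrays and 9.80, 9.27, 9.14 and 9.24 on the poor arrays. For these 3 genes the gap between Control 1 and EKO 4 was wider than for Adipoq.

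Other steps of the pathway had smaller differences. Dgat2, the last enzyme of triglyceride synthesis, differed by 2.32 (pooled SD 0.96), Acly, which makes cytosolic acetyl-CoA from citrate, by 2.05, and Slc25a1, the citrate carrier that feeds it, by 1.60. Acly read 11.89, 12.22, 10.41 and 10.21 on the rich arrays and 9.29, 9.08, 9.07 and 9.09 on the poor arrays. Its poor values stayed between 9.07 and 9.29, although Ucp1 ranged over 3.23 in the same arrays. Scd1, a desaturase, differed by 1.79 with overlap: EKO 4 at 13.17 lay below Control 1 at 13.33. Elovl6, Agpat2, Lpin1, Pcx and Me1 differed by 1.15 to 1.46. Pank1, the first enzyme of coenzyme A synthesis, stood in no list and differed by 2.43, with values of 10.51, 9.87, 9.80 and 9.10 on the rich arrays and 8.24, 7.92, 7.13 and 6.27 on the poor arrays.

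The sequences just before the start of 4 genes are shown because these genes are high together: Ucp1, which set the classes, Fasn, with the largest difference, and the oxidase subunit genes Cox7a1 and Cox8b. They are 150 bases from RefSeq on GRCm38.p6, 5′ to 3′ in the direction of transcription, with the CCAAT box (CCAAT or ATTGG, its other strand) in capitals. The windows lie at chr8:83290198-83290347 on the plus strand for Ucp1, chr7:30184021-30184170 on the plus strand for Cox7a1, chr7:140900447-140900596 on the minus strand for Cox8b and chr11:120824548-120824697 on the minus strand for Fasn.
Ucp1: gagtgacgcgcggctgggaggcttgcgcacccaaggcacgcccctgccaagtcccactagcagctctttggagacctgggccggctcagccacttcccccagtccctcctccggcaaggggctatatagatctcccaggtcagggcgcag
Cox7a1: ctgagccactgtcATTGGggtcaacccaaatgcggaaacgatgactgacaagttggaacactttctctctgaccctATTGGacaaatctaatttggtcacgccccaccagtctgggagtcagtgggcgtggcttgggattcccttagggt
Cox8b: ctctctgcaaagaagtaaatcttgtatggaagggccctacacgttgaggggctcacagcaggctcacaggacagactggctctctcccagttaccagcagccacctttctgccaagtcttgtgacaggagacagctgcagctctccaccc
Fasn: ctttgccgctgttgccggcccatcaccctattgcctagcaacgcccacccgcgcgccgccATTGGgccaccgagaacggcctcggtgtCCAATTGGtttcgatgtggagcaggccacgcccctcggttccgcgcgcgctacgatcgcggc
The letters CCAAT on either strand began 137 and 74 bases before the start of Cox7a1 and 90, 62 and 59 bases before that of Fasn, where the last pair overlap each other. They are not in the windows of Ucp1 and Cox8b. In windows of 250 bases before to 50 bases after the start, CCAAT was present in 41 of 106 windows (38.7%) of 85 of the 138 genes and in 37.4% of all 32851 windows. The E-box CACGTG, which reads the same on both strands, was present in 12.3% and 7.15% of these windows. The nuclear receptor half-site AAGGTCA, on either strand, was present in 2.83% and 4.72%, and the cyclic AMP response element TGACGTCA in 2.83% and 1.79%. These matches describe letters and not sites of binding.

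All 13 tested lipid droplet and lipolysis genes were higher, 5 of them at least 2-fold with no overlap, with a median of 0.83. Cidec, which fuses lipid droplets, read 10.17, 9.73, 9.78 and 8.91 on the rich arrays and 8.13, 7.64, 7.12 and 6.54 on the poor arrays, a difference of 2.29 (pooled SD 0.61). The lipases Lipe and Pnpla2 differed by 1.57 and 1.27, and the droplet coat proteins Plin1, Plin4 and Plin5 by 1.16, 0.65 and 0.29. G0s2, an inhibitor of Pnpla2, differed by 1.14 with overlap, because the poor array Control 2 read 10.40. The differences of Plin3, a droplet protein of most cell types, and of Abhd5, the activator of Pnpla2, were 0.18 and 0.09, with overlap. Glycerol genes followed the same order, with 1.14 for Gpd2, the mitochondrial partner of Gpd1, and 1.26 with overlap for Pck1, an enzyme on the route from smaller precursors to glycerol phosphate.

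**Figure D2:**
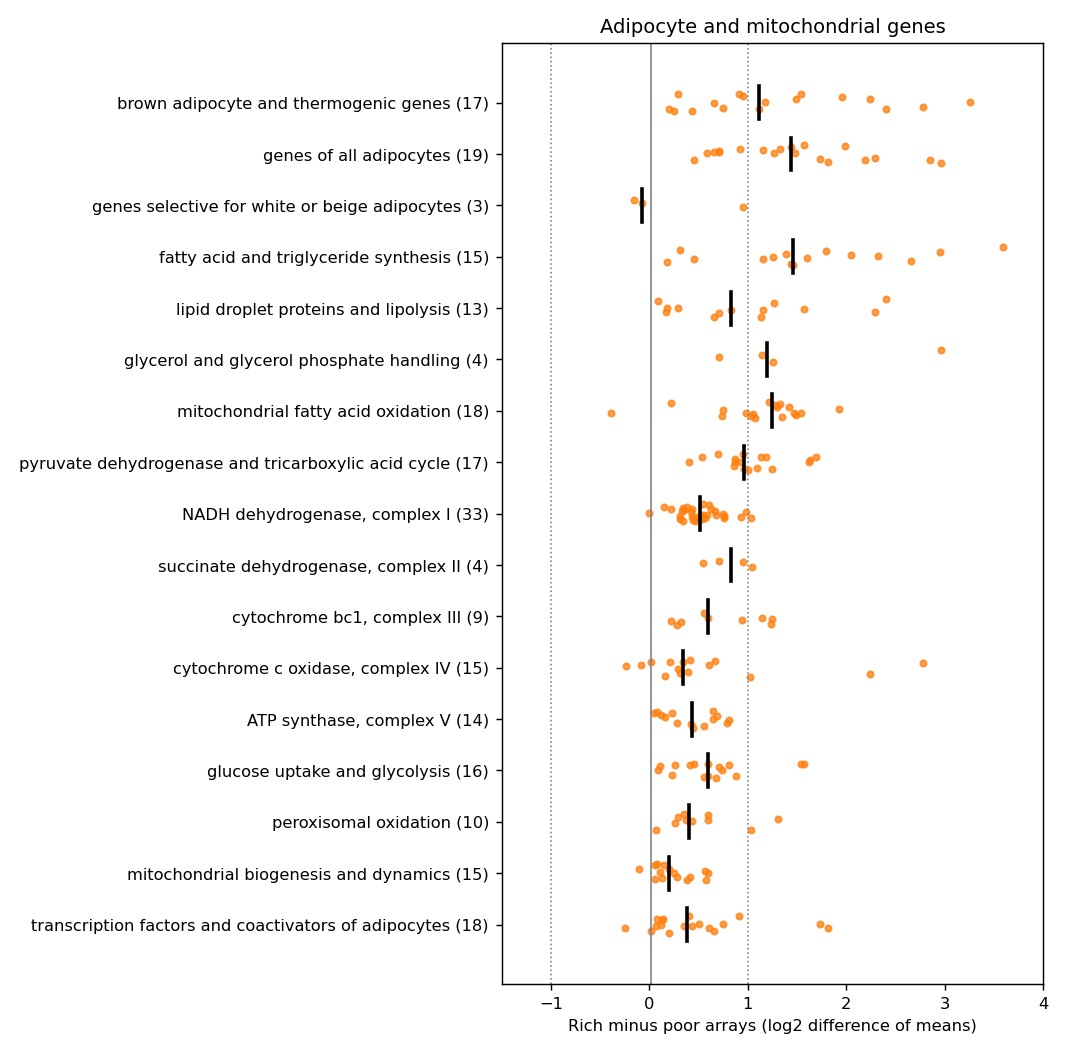
Difference of rich minus poor arrays (log2) for each tested member of the adipocyte and mitochondrial lists, with the number tested in brackets. Points are genes, black bars list medians, the grey line the median of all genes (0.02) and dotted lines a 2-fold difference. The medians of lipid synthesis (1.46), genes of all adipocytes (1.43) and fatty acid oxidation (1.25) lie furthest to the right, and in complex IV 2 genes, Cox7a1 and Cox8b, stand far from the other members.

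Mitochondrial fatty acid oxidation differed as broadly as lipid synthesis: 17 of 18 tested genes were higher, 13 of them at least 2-fold with no overlap, and the median was 1.25. Acaa2, the thiolase of the last step, read 14.81, 14.34, 14.55 and 13.69 on the rich arrays and 13.07, 12.72, 12.30 and 11.62 on the poor arrays, a difference of 1.92 (pooled SD 0.56). Hadhb and Hadha, the subunits of the trifunctional enzyme, differed by 1.54 and 1.28. The acyl-CoA dehydrogenases Acadm, Acadvl and Acadl differed by 1.47, 1.42 and 1.34, while Acads, for short chains, differed by 0.74. Etfa, which takes their electrons, read 14.82, 14.63, 14.55 and 14.06 on the rich arrays and 13.46, 13.37, 13.18 and 12.86 on the poor arrays. The lone gene below 0 was Cpt1a, the form of the entry enzyme used by most tissues. Cpt1a read 12.57, 12.82, 13.09 and 12.99 on the rich arrays and 13.53, 13.26, 13.02 and 13.20 on the poor arrays, a difference of -0.39, and the classes overlapped.

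All 17 tested genes of pyruvate dehydrogenase and the tricarboxylic acid cycle were higher, 16 with no overlap and 8 at least 2-fold, with a median of 0.97. Cs, citrate synthase, read 13.24, 13.13, 12.86 and 12.15 on the rich arrays and 11.79, 11.29, 10.97 and 10.56 on the poor arrays, a difference of 1.69 (pooled SD 0.51). Idh3a, the catalytic subunit of isocitrate dehydrogenase, differed by 1.63, and its partners Idh3b and Idh3g by 0.95 and 0.87. Pdhb, a subunit of the pyruvate dehydrogenase core, differed by 1.62 and read 14.23 and 14.53 on the rich Control arrays but 13.20 and 13.06 on the rich EKO arrays. Suclg2, the subunit of the GTP-forming succinyl-CoA ligase, had the smallest difference of the list, 0.40, beside 1.09 for Sucla2 of the ATP-forming ligase.

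The respiratory chain differed less than the enzymes that feed it. In complex I 32 of 33 tested subunits were higher and 27 did not overlap, but 1 was at least 2-fold higher, and the median was 0.51. That gene, Ndufa10, read 12.66, 12.36, 12.33 and 11.83 on the rich arrays and 11.51, 11.46, 11.20 and 10.88 on the poor arrays. Ndufa7, with 9.47 to 9.56 on the rich arrays and 9.46 to 9.57 on the poor arrays, was level. The median was 0.83 over the 4 subunits of complex II, which all were higher with no overlap, with 1.04 for Sdhb. In complex III the median was 0.59 over 9 genes, led by Uqcrc1, Cyc1 and Uqcrq with 1.24, 1.24 and 1.14. In ATP synthase the median was 0.43 over 14 genes, none of them past 2-fold, led by the alpha subunit gene Atp5a1 with 0.81 and the beta subunit gene Atp5b with 0.79.

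Complex IV combined the largest and some of the smallest differences of the chain. Its median over 15 genes was 0.34, while Cox7a1 and Cox8b differed by 2.78 and 2.24. The forms of the same subunits found in most tissues differed less. Cox7a2 read 15.95, 15.85, 15.77 and 15.45 on the rich arrays and 15.53, 15.38, 15.48 and 15.39 on the poor arrays, a difference of 0.31. Cox8a had a difference of 0.34. The Cox7a1 difference exceeded that of Cox7a2 by 2.47, and that of Cox8b exceeded that of Cox8a by 1.90. The muscle form Cox6a2 had a difference of 0.02 and levels of 5.85 to 6.46, and Cox4i2, the form of lung and low oxygen, had one of -0.23. Cox5a, with 1.02, was the third member past 2-fold.

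Similar pairs of forms existed outside complex IV. Cpt1b differed by 1.48 and Cpt1a by -0.39, Acaca by 2.66 and Acacb by 0.31, and Dgat2 by 2.32 and Dgat1 by 0.18. Ldhb, the lactate dehydrogenase form of oxidative tissues, differed by 1.57 and Ldha, the form of glycolytic tissues, by 0.60. These are differences of each gene between arrays, and levels of separate probe sets were not set against each other. The probe sets of processed pseudogenes were also among the 138, and these genes were chosen after their values were seen: Ldhb-ps had a difference of 2.79, Fabp3-ps1 of 2.30, Hadhb-ps of 1.86 and Mpc1-ps of 1.45. Their values are uncertain, since probes for a copy can read RNA of the parent gene.

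Genes of mitochondrial upkeep differed little. Over 15 genes of biogenesis and dynamics the median was 0.20 and none was past 2-fold. Tfam, which packs and transcribes mitochondrial DNA, read 8.83, 8.76, 8.80 and 8.92 on the rich arrays and 8.86, 8.70, 8.84 and 8.69 on the poor arrays, and Polg, its DNA polymerase, differed by 0.06. The crista proteins Immt and Chchd3 both differed by 0.57 with no overlap. Over 10 peroxisomal genes the median was 0.41, and Phyh, which starts alpha-oxidation, and Crat, a carnitine acyltransferase, were past 2-fold with 1.30 and 1.04. Glucose uptake and glycolysis had a median of 0.60 over 16 genes, all above 0, with Ldhb the lone one past 2-fold and no overlap. Hk2, 1 of these 16, passed the filter through the rich arrays alone and so had to be above 0. Over the other 15 genes the median was also 0.60. Gapdh, often used as a reference gene, read 14.73, 14.89, 14.80 and 14.49 on the rich arrays and 14.35, 14.09, 14.05 and 14.03 on the poor arrays, a difference of 0.60 (pooled SD 0.16) with no overlap. Pygl, glycogen phosphorylase, stood in no list and differed by 2.30.

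Receptor signalling upstream of thermogenesis was mostly level between the classes. Of 9 adrenergic and thyroid signalling genes 6 were above 0, with a median of 0.09, and 1 stood apart. Prkar2b, a regulatory subunit of protein kinase A found in fat, read 10.97, 10.67, 10.94 and 9.75 on the rich arrays and 9.44, 9.05, 8.03 and 8.05 on the poor arrays, a difference of 1.94 (pooled SD 0.65). Pde3b, which breaks down cyclic AMP, Gnas, which couples receptors to its synthesis, and Thra, a thyroid hormone receptor, differed by 0.36, 0.14 and 0.09, all with overlap. Among 9 secreted factors of fat the median was 0.66. Nrg4, a brown fat growth factor, differed by 0.66 with no overlap. Rarres2, the chemoattractant chemerin, differed by 1.57, but 1 array decided its size: it read 8.37, 11.28, 9.25 and 7.34 on the rich arrays and 7.72, 7.23, 7.65 and 7.35 on the poor arrays, with Control 4 alone above 10.

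Endothelial genes were level between the classes in the median. Of 22 tested endothelial identity genes 11 were above 0, none was past 2-fold, and the median difference was -0.01. Their differences ran from -0.425 to 0.464, and 1 gene was lower with no overlap (2.51% over all genes). The mean over the list was 12.28 to 12.38 on the rich arrays and 12.24 to 12.38 on the poor arrays. Cdh5, the endothelial cadherin, read 16.42, 16.40, 16.41 and 16.50 on the rich arrays and 16.42, 16.38, 16.23 and 16.52 on the poor arrays. Pecam1, an endothelial adhesion protein, stayed within 18.07 to 18.23 on all 8 arrays. The arterial list had a median of 0.01 over 14 genes, which ran from -0.63 to 0.36, with 1 lower with no overlap. The capillary list had a median of 0.11 over 8 genes, with 3 exceptions: Cd36, a fatty acid transporter (1.47, with overlap), Fabp4, a fatty acid carrier (1.32), and Rgcc (1.03). Cd36 and Fabp4 are also adipocyte genes, and the part of each cell type in their difference was not tested. The other 5 capillary genes differed by no more than 0.18 in either direction.

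**Figure D3:**
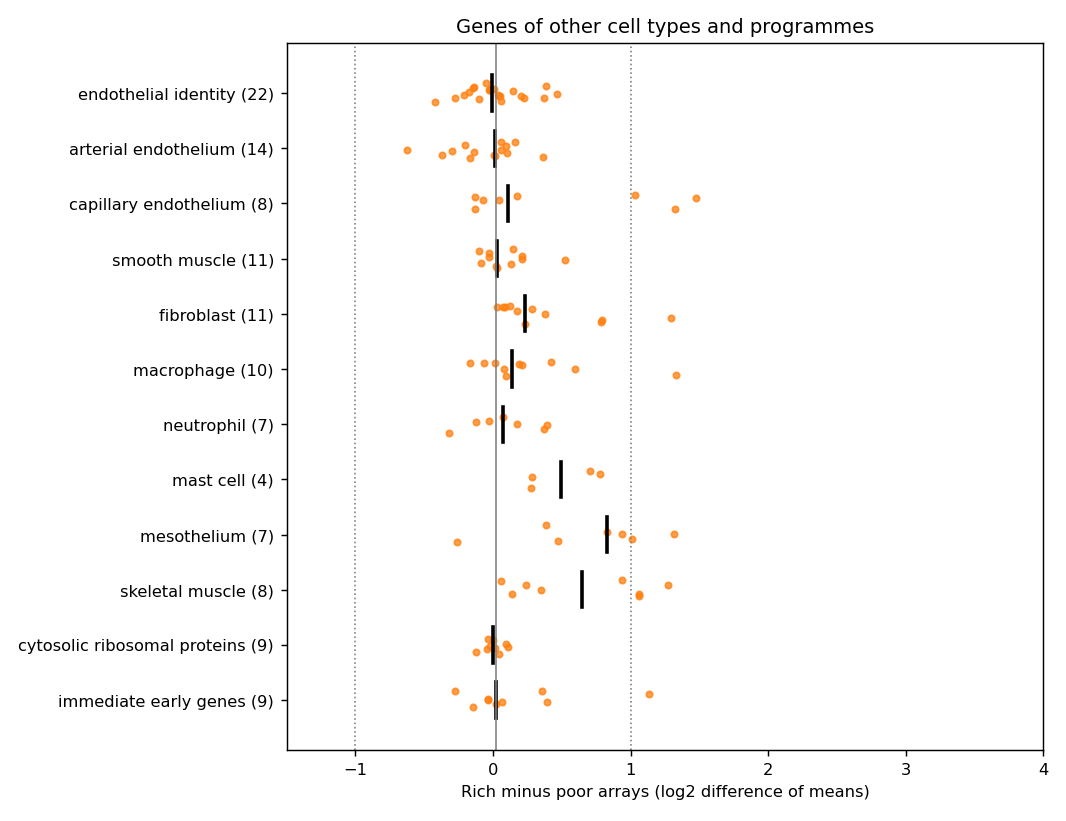
Difference of rich minus poor arrays (log2) for each tested member of lists of other cell types and programmes, with the number tested in brackets and marks as in the plot of adipocyte lists. Endothelial, smooth muscle and ribosomal protein genes centre on 0, while mesothelial and skeletal muscle genes have medians of 0.83 and 0.65.

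Genes of several other cell types moved with the classes in part. Smooth muscle genes did not, with a median of 0.03 over 11 genes and list means of 7.61 to 8.04 on the rich and 7.49 to 7.79 on the poor arrays. Without Myocd and Des, which passed the filter on level through the rich arrays alone, the smooth muscle median was 0.02. All 11 tested fibroblast genes were above 0, with a median of 0.23, and Dpt, a matrix protein of connective tissue, was past 2-fold with no overlap. Dpt read 8.62, 9.18, 8.64 and 7.66 on the rich arrays and 7.58, 6.46, 7.25 and 7.62 on the poor arrays, where EKO 4 was close to the poor range. Dcn, the proteoglycan decorin, differed by 0.79 with overlap. Without Control 4 and EKO 2 the fibroblast median was 0.07.

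Among 10 macrophage genes the median was 0.14, and Lyz2, lysozyme, was past 2-fold with no overlap. Lyz2 read 11.06, 11.33, 10.65 and 10.54 on the rich arrays and 10.35, 9.97, 8.62 and 9.33 on the poor arrays. The resident macrophage genes Mrc1 and F13a1 differed by 0.19 and 0.21. All 4 tested mast cell genes were higher, with a median of 0.50 (0.71 without Tpsb2, which passed the filter through the rich arrays alone) and list means of 6.47 to 7.03 on the rich and 6.14 to 6.42 on the poor arrays. Of these, Mcpt4, a mast cell protease, differed by 0.71, and its levels lay near those of negative control probe sets.

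Mesothelium and skeletal muscle, which lie outside the vessel, followed single arrays. The mean over 7 mesothelial genes was 8.16 on Control 3, 10.02 on Control 4, 8.64 on EKO 1 and 7.53 on EKO 4, and 8.05, 7.81, 7.93 and 7.88 on the poor arrays, so EKO 4 was below all poor arrays. The mean over 8 skeletal muscle genes was 7.89 on Control 4 and 7.48 on EKO 1 but 6.26 to 6.59 on the other 6 arrays. The mesothelial median difference was 0.83, or 0.88 without Krt19, which passed the filter on level through the rich arrays alone. Without Control 4 and EKO 2 the list medians were 0.37 for mesothelium and 0.36 for skeletal muscle. Tnnc2, a fast muscle troponin, read 6.49, 9.90, 8.53 and 6.45 on the rich arrays and 6.39, 6.77, 6.33 and 6.79 on the poor arrays. Sln and Atp2a1, which drive calcium cycling in muscle and stood in the list of creatine and calcium cycling, were high on the same arrays: Sln read 8.15 on Control 4 and 7.58 on EKO 1 and 6.50 to 6.93 on the other arrays. Atp2a1 passed the filter on level through the rich arrays alone and so had to be higher in them. The part of these tissues in the differences above was not tested. The brown adipocyte median was 1.03 without Control 4 and EKO 2, against 1.12 with them. EKO 1, the other array high in skeletal muscle genes, stayed in this comparison, and EKO 2 was not high in them.

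Few genes were low in the rich arrays, and none of the 15 protein-coding ones with the largest differences stood in an adipocyte list. Trim12a, a member of the tripartite motif family, read 7.35, 7.47, 7.41 and 7.42 on the rich arrays and 9.21, 7.56, 9.24 and 7.71 on the poor arrays. It was high on Control 1 and Control 2 and about level on all other arrays, so its difference of -1.02 rested on 2 poor arrays of 1 group. Ccdc68, a coiled-coil protein, had the same pattern in weaker form, with 7.35, 6.93, 7.63 and 6.98 on the rich arrays and 8.60, 7.95, 8.58 and 7.84 on the poor arrays. Nr1d1, the clock repressor REV-ERB alpha, read 8.05, 7.93, 6.90 and 8.39 on the rich arrays and 9.01, 8.60, 8.77 and 8.95 on the poor arrays, and its difference of -1.01 was spread over both groups. The fourth gene past 2-fold was Gm22788, a small nuclear RNA, which was chosen after its values were seen. Cyp4b1, a fatty acid hydroxylase, Qsox1, a sulfhydryl oxidase, and F2r, the thrombin receptor, differed by -0.87, -0.79 and -0.61.

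Because Nr1d1 was among them, 15 clock genes were added as a list after these values were seen, and 14 were tested. The median was -0.11, with 4 above 0. Clock, the activator, read 11.42, 11.65, 11.55 and 11.25 on the rich arrays and 11.01, 10.79, 11.12 and 10.72 on the poor arrays, a difference of 0.56 with no overlap. Its partners Arntl and Npas2 differed by 0.83 and 0.48, with overlap. Arntl read 9.23, 9.18, 9.51 and 7.55 on the rich arrays and 8.08, 7.24, 8.85 and 7.99 on the poor arrays, and EKO 4 was the second lowest of all. The output genes Dbp, Nr1d2 and Per3 differed by -0.48, -0.43 and -0.38. The labels give no time of day for the harvest.

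Each study group held 2 rich and 2 poor arrays. The 138 genes were chosen without overlap, so they had to be higher in the rich arrays of both groups, and the size alone could differ. Of the 138 genes, 92 were at least 2-fold higher in the Control arrays alone and in the EKO arrays alone. The median difference of the 138 was 1.49 in Control and 1.16 in EKO arrays, and 121 had the larger difference in Control. Acly differed by 2.87 in Control and 1.23 in EKO, and Thrsp by 3.73 and 2.18, whereas Fabp3 differed by 1.57 in Control and 2.33 in EKO. The difference between the groups was tested as the interaction of group and class with limma and adjustment by the Benjamini-Hochberg method, and no gene was called (0 of 16232, 0%). The smallest adjusted p was 0.200, and 556 genes had an unadjusted p under 0.05.

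**Figure D4:**
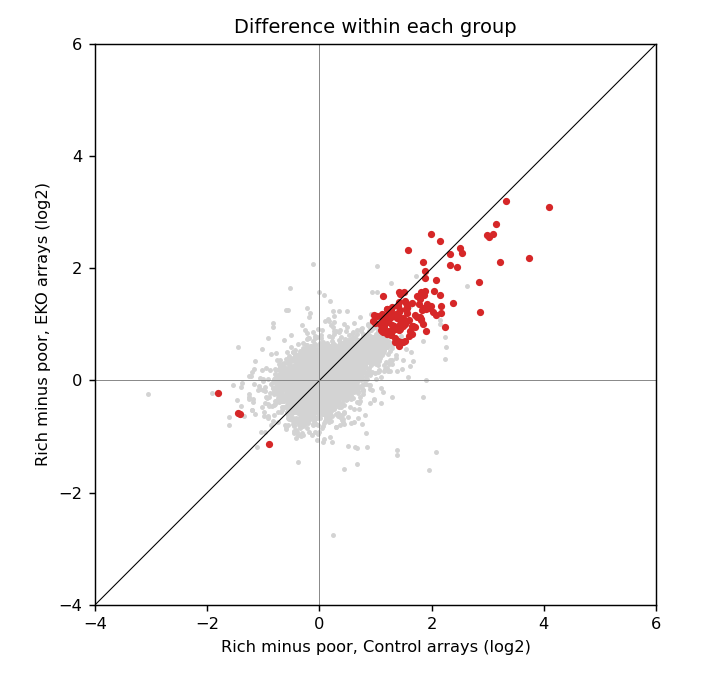
Difference of rich minus poor arrays (log2) in the Control arrays (horizontal axis) against that in the EKO arrays (vertical axis) for 16232 genes, with the 142 genes past 2-fold without overlap in red and the line of equal differences in black. The higher genes lie above 0 in both groups because they were chosen without overlap, and 121 of 138 lie below the line.

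The comparison the study was built for, EKO minus Control, was fitted over all 8 arrays with the class as a covariate. No gene was called by limma at an adjusted p of 0.05 (0%), the smallest adjusted p was 0.301, and 2043 genes (12.6%) had an unadjusted p under 0.05, 1063 higher and 980 lower in EKO. Without the covariate no gene was called either, with a smallest adjusted p of 0.478 and 1449 genes under an unadjusted 0.05. A set of 1372 genes was below that level in both fits. The residual SD with the class was 0.324 in the median over 85 adipocyte and oxidation genes, against 0.770 without it, while over all genes it was 0.138 and 0.153. The classes were chosen from a gene of the same kind, so this is a description of what the covariate removed.

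The gene that shows this most among those with the smallest p was Timm13, a chaperone of the mitochondrial intermembrane space. Its EKO minus Control difference was -0.44, with an SE of 0.06 with the class and 0.24 without it (limma adjusted p = 0.301 and 0.605). Pof1b, an actin-binding protein (-0.49), Rab2b, a trafficking GTPase (-0.51), Clptm1l, a membrane protein (-0.39), and Cnnm2, a magnesium transporter (-0.51), were the other genes lower in EKO with the smallest p. Smgc, a salivary mucin-like protein (0.43), Btbd35f12 (0.64), Ghrl, ghrelin (0.39), Krtap5-2, a hair keratin-associated protein (0.45), and Clec4n, a myeloid lectin (0.35), were those higher in EKO. Their limma adjusted p values were 0.301 to 0.307, so none passed. Ghrl and Clec4n, with Control means of 5.99 and 6.13, passed the filter of 6.14 through the EKO arrays alone and so had to be higher there. Both group means of Ghrl, Clec4n and Smgc lay below the negative control medians of 7.34 to 7.45. Mef2c differed by -0.03 (SE 0.11, limma adjusted p = 0.931).

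Inside the classes, Ucp1 and Adipoq still had lower mean levels in EKO than in Control. Since each class held 2 arrays of each group, the EKO minus Control difference of -0.94 for Ucp1 and of -0.67 for Adipoq is also their mean difference within classes, given here with no test because Ucp1 made the classes and Adipoq would have made the same ones. In the rich class both Control arrays were above both EKO arrays in Ucp1, while in the poor class they alternated. All 33 tested complex I genes had EKO differences below 0. All 17 genes of the tricarboxylic acid cycle list and all 19 of the general adipocyte list were below 0 too, against 8939 of all 16232 genes, with medians of -0.28 and -0.40. Of the endothelial identity genes 11 were above and 11 below 0. None of the genes in these lists passed the adjusted threshold in either fit. The part of brown fat in these group differences was not tested.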

How the data were processed

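The authors deposited log2 values for each transcript cluster, computed by SST-RMA with the Expression Console software per the labels. That method corrects background and equalizes the distributions of the arrays, so a shared shift in signal was largely removed beforehand. The software version, array batches and genome build are not given in the sources used here. The table held 72688 probe sets, 6732 of them controls. The platform annotation paired 30604 with 1 gene symbol, updated through RefSeq (GRCm38.p6), which matched 30602. For 429 symbols the probe set with the highest mean was kept. Genes with a mean above 6.14, the median, were analysed (16232, of which 11219 are protein-coding). Another 13588 probe sets above this level had no single symbol, and 23 of them (0.169%) were at least 2-fold higher in the rich arrays without overlap.

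The arrays, the gene lists (42, with 533 symbols, and the clock list) and the members named were chosen with earlier results of these data known. Rich and poor arrays were described by differences of means. The SD is pooled within the classes. EKO was compared with Control by limma 3.58.1 in R 4.3.3, with the class as a covariate and Benjamini-Hochberg adjustment over all genes at 0.05. In data simulated with 200 of 16232 genes changed, this fit called 89% of genes changed by 1 and 96% of those changed by 2, with 5.61% false calls, and the interaction called 39% and 82%, with 3.20% false calls. The simulated noise was normal, with the residual SD of each gene, and independent between genes and arrays. It held no difference between the classes and no variation shared by many genes, as these arrays do, so these shares may not hold for them. Named genes are Ucp1, Adipoq and Mef2c, the 15 protein-coding genes with the largest differences without overlap in each direction, up to 6 members of each list (all members of adipocyte and mitochondrial lists), and, for each direction of the EKO fit, the 5 genes of smallest p. Predicted, clone, receptor-cluster, microRNA and small nucleolar RNA symbols were not named. Alternatives covered the filter, normalization, probe set, fold, definition of the classes, covariates, variance model and single arrays left out. The labels call each sample a single aorta, and the number of arrays limits the precision. Replicate numbers did not pair the arrays: the deviations of same-numbered arrays correlated at -0.16, 0.21, -0.24 and 0.13.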

Additional observations from a re-analysis of the deposited data

Results flagged for a closer look

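In 11 cases among 150 tests of a gene or a list mean within the 4 arrays of a study group, 1 array lay far from the other 3. Chance gives about 1 such case in 20 groups.

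Control 4 and EKO 1 shared most of them. The skeletal muscle mean was 7.89 on Control 4, with 6.26 to 6.45 on the other Control arrays, and 7.48 on EKO 1, with 6.44 to 6.59 on the other EKO arrays. The mean of the creatine and calcium cycling list, which holds the muscle genes Sln and Atp2a1, was 9.03 on Control 4 (other Control arrays 8.10 to 8.21) and 8.87 on EKO 1 (other EKO arrays 8.11 to 8.13). The mesothelial mean was 10.02 on Control 4, against 7.93 to 8.16. The mean over secreted factors of fat was 8.48 on EKO 1, against 7.85 to 7.95.

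Other arrays stood out in 5 cases. EKO 3 was high in Cyp4b1, the fatty acid hydroxylase, at 11.64 (other EKO arrays 10.61 to 10.77), and in Kcnip3, a calcium-binding channel partner, at 9.89 (9.34 to 9.43). Control 2 was high in the arterial endothelial mean at 12.85 (12.63 to 12.66) and low in the macrophage mean at 6.77 (7.33 to 7.37). Control 1 was low in the smooth muscle mean at 7.49 (7.72 to 7.75).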

How the results depend on the processing

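The 138 genes higher in the rich arrays became 405 at 1.5-fold, 17 at 4-fold, 243 for the 3 highest against the 3 lowest arrays and 274 in the Control arrays alone, of which 135 were among the 138. Leaving out 1 array in turn gave 121 to 208 genes, the highest without EKO 4. The 4 lower genes became 1 with the filter at the 75th percentile, 29 at 1.5-fold, 0 at 4-fold, 9 for 3 against 3 arrays, 38 in Control arrays alone, 10 in EKO arrays alone and 8 without Control 4 and EKO 2, an alternative added after seeing the data, and 3 to 11 with 1 array left out. Classes made from Adipoq or from the other brown adipocyte genes were identical to those of Ucp1. Of 8293 values of the 366 named genes under 23 alternatives, 8169 moved by less than 1 pooled SD and 124 by more, 114 of them from the use of 1 study group alone. The 8169 include values that could not move. The filter, the fold, protein-coding genes alone and the identical classes leave the difference of a gene unchanged. The other choice of probe set can move only symbols with several probe sets. The sign turned in 202 of the 8293 values, in 69 genes whose reported differences were at most 0.425 in size. It turned in 0 of the named genes past 2-fold without overlap. For these genes the lack of overlap fixes the sign when arrays are left out or 1 group is used. Centring or normalizing the arrays again kept the median difference of all genes between -0.04 and 0.04. No gene was called in 26 settings of the EKO fit and 17 of the interaction. Fits with a replicate block called 0 genes: 1259 had an unadjusted p under 0.05 with the block in place of the class (smallest adjusted p 0.433) and 1562 with the block and the class (0.457), against 2043 with the class. Array signal limits genes near the negative control level.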

Other observations

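The genes described here were chosen after their values were seen, are among the 138 genes at least 2-fold higher in the rich arrays without overlap, and stood in no list. Genes of glycogen handling were among them, beside Pygl. Ppp1r3c, a subunit that brings protein phosphatase 1 to glycogen, had means of 8.98 on the rich and 7.35 on the poor arrays (difference 1.62, pooled SD 0.21). Gys2, the liver form of glycogen synthase, differed by 1.25 (pooled SD 0.48), and Gbe1, the branching enzyme, by 1.27 (pooled SD 0.39). Gys1, the muscle form of glycogen synthase, differed by 1.09 (pooled SD 0.25).

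Mitochondrial genes outside the lists included Cycs, cytochrome c, with means of 14.71 on the rich and 13.08 on the poor arrays (difference 1.62, pooled SD 0.42). Apoo, a protein of the crista junction complex, differed by 1.69 (pooled SD 0.40), Coq8a, which acts in coenzyme Q synthesis, by 1.27 (pooled SD 0.27), and Bckdhb, a subunit of the branched-chain keto acid dehydrogenase, by 1.27 (pooled SD 0.45). Among genes of lipid handling, Pnpla3, a droplet lipase, differed by 1.65, Lgals12, a galectin of adipocyte lipid droplets, by 1.63, Ces1d, a carboxylesterase that cleaves triglycerides, by 1.43, and Aacs, which turns acetoacetate into acetoacetyl-CoA, by 1.19. Hp, haptoglobin, a plasma protein also made by fat, had means of 9.97 on the rich and 8.56 on the poor arrays (difference 1.41, pooled SD 0.41).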
